A study of Homo sapiens with 6 samples.

Results

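The mitochondrial genome transcripts were the 37 genes whose name starts with MT- in a deposited table of 34738 genes: 13 mRNAs, 2 rRNAs and 22 tRNAs. They were compared between thyroid cancer cells in which GDF15, which encodes a secreted stress-induced cytokine, was knocked down with a small interfering RNA (siGDF15, 3 libraries) and control cells (NC, 3 libraries). The study asked which genes responded to the knockdown, and its methods call the 3 libraries of a group biological replicates. All 6 libraries are labelled as KHM-5M, a human thyroid cancer line, whereas a figure legend of the study names TPC-1. The methods speak of negative control cells and list a negative control siRNA, while the description deposited with the samples speaks of a blank control, so whether the NC cells went through transfection with an siRNA was not settled here. The whole library was made from RNA selected for a poly(A) tail.

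GDF15 was at 22.4, 19.3 and 23.1 FPKM in NC replicates 1 to 3 and at 10.8, 10.5 and 10.7 FPKM in siGDF15 replicates 1 to 3. FPKM is a fragment count scaled to transcript length and to how many fragments of a library were mapped. The groups did not overlap, and the log2 fold change was -0.92 (SE 0.0792, adjusted p = 2.4e-05 in edgeR's quasi-likelihood test with Benjamini-Hochberg adjustment). That test is behind each adjusted p of a gene given here, whereas shares and ratios were compared with exact permutation tests. Of the markers of a thyroid follicular cell, the transcription factor gene PAX8 was at 54.3 to 80.4 FPKM and FOXE1 at 2.53 to 2.94 FPKM. TG, SLC5A5, SLC26A4, NKX2-1, DIO1 and DUOX2 were at 0.219 FPKM or less in every library, so these markers were at or near 0. Of the epithelial markers, the keratin gene KRT18 was at 78.1 to 108.5 FPKM, KRT8 at 11.3 to 21.3, KRT19 at 10.2 to 15.2 and EPCAM at 1.35 to 2.41 FPKM. PTPRC, CD3E, PECAM1, VWF and CDH5, markers of leukocytes and endothelium, were at 0.161 FPKM or less. Other markers of such cells were present in every library: CD68, a macrophage marker, was at 15.9 to 19.4 FPKM, and of the fibroblast markers COL1A1 was at 4.67 to 6.78, COL1A2 at 5.60 to 7.41, PDGFRB at 0.970 to 1.16 and DCN at 0.465 to 0.631 FPKM. Total counts lay between 51738814 and 68025163 per library, and the lowest was that of siGDF15 replicate 2.

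The human mitochondrial genome is a small circle that is transcribed from both strands into long precursors, and most of its mRNAs and rRNAs are released when the tRNAs between them are cut out. The heavy-strand transcript carries both rRNAs, most tRNAs and all mRNAs but ND6, and the light-strand transcript carries ND6 and the remaining tRNAs. The mRNAs encode core subunits of the respiratory chain (complexes I, III and IV) and of the ATP synthase (complex V), and all other subunits come from nuclear genes. Most mitochondrial mRNAs, though not all to the same extent, carry short poly(A) tails, the rRNAs shorter ones, and a mature tRNA ends in CCA. Of the 37 genes, 28 lay on the plus strand of the reference, that of the heavy-strand transcript, and 9 on the minus strand. The positions of all 37 were equal to those of GENCODE release 29 on GRCh38.

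The tRNA genes split into a group that rose and a group that fell, and the sequences of 7 of them are shown with the anticodon in capitals, since their order along the genome bears on the values given further on. They were copied from the GENCODE release 29 transcripts, and each is written 5′ to 3′ as the RNA reads. The tRNA genes for histidine (chrM:12138-12206), serine (chrM:12207-12265) and leucine (chrM:12266-12336) follow each other on the plus strand between ND4 and ND5, with no base between them, and all of them were lower in siGDF15.
MT-TH: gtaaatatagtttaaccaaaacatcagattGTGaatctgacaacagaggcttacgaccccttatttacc
MT-TS2: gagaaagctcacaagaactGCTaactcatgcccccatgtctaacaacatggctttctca
MT-TL2: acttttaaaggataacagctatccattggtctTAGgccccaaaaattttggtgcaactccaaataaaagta
The tRNA genes for alanine (chrM:5587-5655), asparagine (chrM:5657-5729), cysteine (chrM:5761-5826) and tyrosine (chrM:5826-5891) lie on the minus strand between ND2 and CO1, and all of them were higher in siGDF15.
MT-TA: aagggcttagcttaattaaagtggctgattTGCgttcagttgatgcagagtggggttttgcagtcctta
MT-TN: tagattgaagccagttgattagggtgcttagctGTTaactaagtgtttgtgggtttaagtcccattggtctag
MT-TC: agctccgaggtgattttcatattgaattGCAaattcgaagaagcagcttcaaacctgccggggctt
MT-TY: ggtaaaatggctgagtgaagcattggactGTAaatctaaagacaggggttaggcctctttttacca
The tRNA genes were 59 to 75 bases long, shorter than the sequencing reads of 150 bases. A read over a tRNA gene can therefore come from a precursor or a neighbouring transcript, and the values of tRNA genes do not measure mature tRNA alone.

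All 13 mitochondrial mRNAs and both rRNAs rose in siGDF15, whereas the tRNAs went both ways. Over the 37 genes, all of which had a mean FPKM of 1 or more and were tested, 25 were higher (adjusted p under 0.05), 7 were lower and 5 were not called. Among the 11867 genes tested, 30.0% were higher and 31.4% were lower. Without the TMM factors that balance the libraries, the shares were 22.8% higher and 39.5% lower over all tested genes, and 25 mitochondrial genes were higher and 8 lower. In the main fit, with TMM, none of the 37 reached the threshold of the study, while 7.81% of tested genes did. That threshold is an absolute log2 fold change of at least 1 besides the adjusted p, and MT-RNR1 and MT-TP crossed it under some alternatives. The FPKM of the groups did not overlap for 34 of the 37 genes, 25 higher and 9 lower in siGDF15, where 25.6% of tested genes were apart and higher and 42.8% apart and lower.

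**Figure D1:**
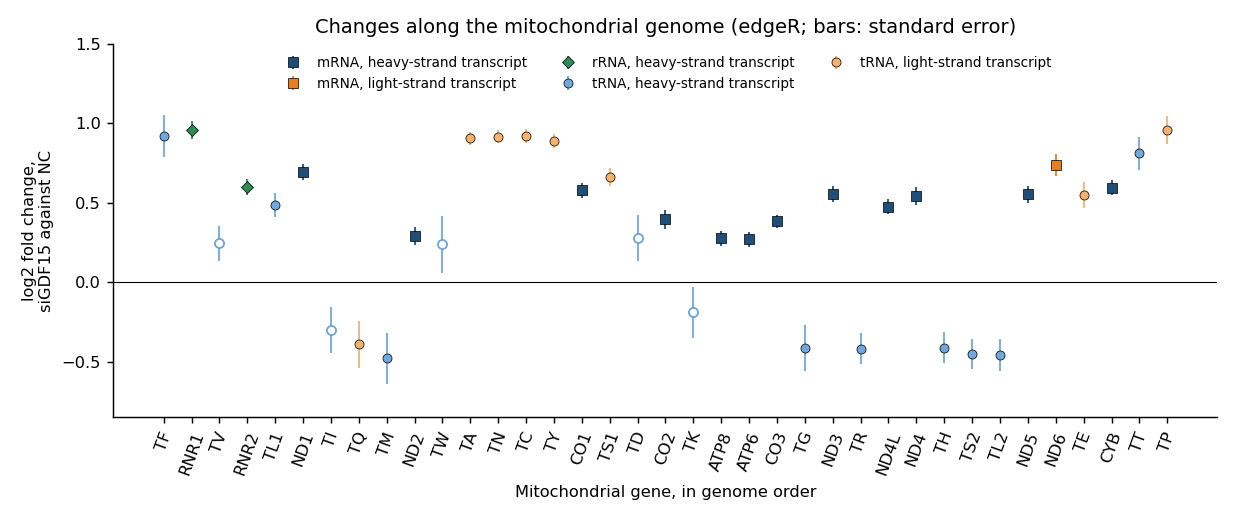
Log2 fold change of siGDF15 against NC for each of the 37 mitochondrial genes in genome order, with bars of 1 standard error (edgeR, 3 libraries per group). Filled symbols passed an adjusted p of 0.05 and open symbols did not. The mRNAs (squares) and rRNAs (diamonds) all lie above 0, the tRNAs of the light-strand transcript (orange circles) lie above 0 except MT-TQ, and 6 of the called tRNAs of the heavy-strand transcript (blue circles) lie below it.

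The mitochondrial mRNAs were among the most abundant transcripts of these cells. The 10 genes with the highest mean FPKM were all mitochondrial, as were 21 of the highest 30. In NC the levels ranged from 683 FPKM (MT-ND3) to 8644 FPKM (MT-CO3), and the order from the top was CO3, CO1, CO2, ATP6, ND4, ATP8 and ND4L. Several neighbours in this order were within their spread: CO3 had 8644 ± 388 FPKM (SD, n = 3) and CO1 8346 ± 475, and CO2, ATP6, ND4 and ATP8 lay between 5600 and 5992 FPKM with SDs of 123 to 285. At the low end, MT-ND6 had 1343 ± 89.7 FPKM and MT-ND3 683 ± 19.1 FPKM. In siGDF15 CO1 stood first with 11580 ± 410 FPKM and CO3 second with 10474 ± 270.

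**Figure D2:**
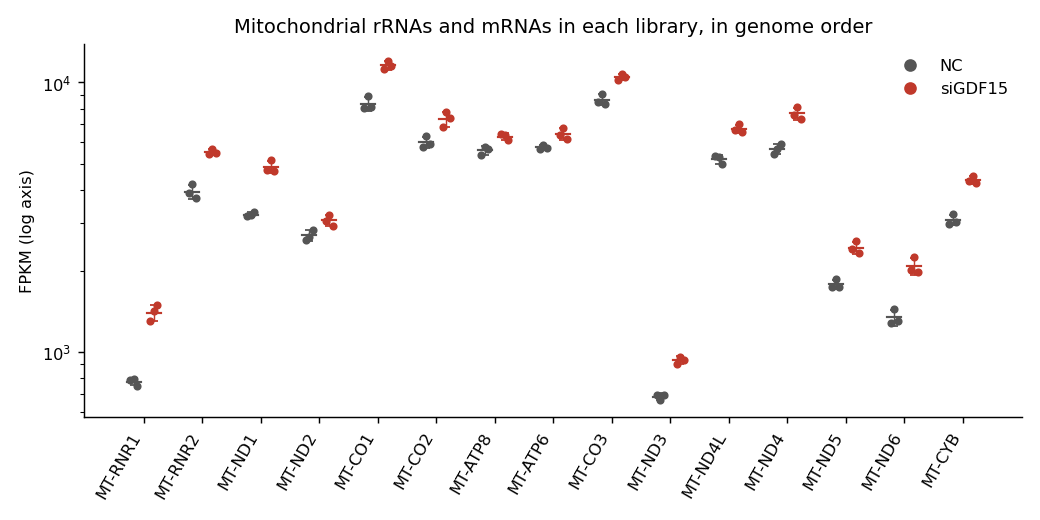
FPKM of each mitochondrial rRNA and mRNA in genome order, on a log axis. Each point is 1 library (grey, NC; red, siGDF15), with lines for the mean and SD of 3 libraries. The red points lie above the grey points for all 15 genes.

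The ND genes encode core subunits of complex I, the NADH dehydrogenase at the entry of the respiratory chain, and all 7 rose. MT-ND6, the only mRNA of the light-strand transcript, had 1284, 1446 and 1299 FPKM in NC and 2006, 2257 and 1979 FPKM in siGDF15. Its log2 fold change of 0.74 (SE 0.0705, adjusted p = 4.1e-05) was the highest estimate among the mRNAs, within 1 SE of that of MT-ND1. MT-ND1 was at 3185, 3215 and 3306 FPKM in NC and 4738, 5144 and 4699 FPKM in siGDF15, a log2 fold change of 0.69 (SE 0.0504, adjusted p = 9.6e-06). In both genes every siGDF15 library lay above every NC library. MT-ND3, MT-ND5, MT-ND4 and MT-ND4L had log2 fold changes of 0.56, 0.56, 0.54 and 0.48. MT-ND2 had the smallest of the complex, 2602, 2674 and 2841 FPKM in NC against 3068, 3235 and 2938 FPKM in siGDF15, a log2 fold change of 0.29 (SE 0.0553, adjusted p = 0.0019).

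MT-CYB encodes cytochrome b, the only mitochondrially encoded subunit of complex III, which passes electrons to cytochrome c. It was at 2987, 3249 and 3044 FPKM in NC and at 4305, 4505 and 4223 FPKM in siGDF15, a log2 fold change of 0.60 (SE 0.0471, adjusted p = 1.5e-05). The 3 mRNAs of complex IV, the cytochrome c oxidase, also rose. MT-CO1, its catalytic subunit, was at 8025, 8892 and 8122 FPKM in NC and at 11209, 12019 and 11512 FPKM in siGDF15, a log2 fold change of 0.58 (SE 0.0494, adjusted p = 2.2e-05). MT-CO2 and MT-CO3 rose by 0.40 (SE 0.0598, adjusted p = 0.00056) and 0.38 (SE 0.0434, adjusted p = 0.00011). The groups were apart in all of these genes.

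MT-ATP6 and MT-ATP8, both in the membrane part of the ATP synthase, had the lowest estimates among the mRNAs, within 1 SE of that of MT-ND2. The order of these genes changed with the library left out. MT-ATP6 was at 5642, 5880 and 5707 FPKM in NC and at 6358, 6790 and 6156 FPKM in siGDF15, a log2 fold change of 0.27 (SE 0.0487, adjusted p = 0.0015). MT-ATP8 was at 5374, 5779 and 5647 FPKM in NC and at 6415, 6385 and 6104 FPKM in siGDF15, a log2 fold change of 0.28 (SE 0.045, adjusted p = 0.00086). Both pairs of groups were apart, by less than in the other mRNAs except MT-ND2. Both reading frames sit on 1 transcript and share 46 bases, so part of their counts cannot be told apart. The shared stretch (chrM:8527-8572, plus strand) is shown with the start codon of ATP6 in capitals.
ATP8-ATP6 overlap: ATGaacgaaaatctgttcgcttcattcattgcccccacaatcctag
ND4L and ND4 also sit on 1 transcript and share 7 bases, shown in capitals with 10 bases on either side (chrM:10750-10776, plus strand).
ND4L-ND4 junction: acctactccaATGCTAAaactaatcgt
Their log2 fold changes were 0.48 (SE 0.0481) and 0.54 (SE 0.0549).

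Both rRNAs rose, the 12S rRNA of the small ribosomal subunit by more than the 16S rRNA of the large one. MT-RNR1 (12S) was at 788, 792 and 750 FPKM in NC and at 1300, 1414 and 1490 FPKM in siGDF15, a log2 fold change of 0.96 (SE 0.0573, adjusted p = 3.5e-06). MT-RNR2 (16S) was at 3875, 4201 and 3720 FPKM in NC and at 5422, 5680 and 5495 FPKM in siGDF15, a log2 fold change of 0.60 (SE 0.0491, adjusted p = 1.8e-05). The count of 16S was 803, 867 and 811% of that of 12S in NC and 682, 657 and 603% in siGDF15, with no overlap (two-sided p = 0.1 in an exact permutation test, which can give no smaller p with 3 libraries against 3). Of 64 genes listed as without a poly(A) tail in most cells, mainly replication-dependent histone genes, 18 passed the filter. Of these, 13 were higher and 3 lower (72.2% higher, against 30.0% of all tested genes). Their median log2 fold change was 1.72, against 0.0026 for all tested genes. Among them H2AC6 went from 4.36 ± 0.328 to 44.2 ± 3.23 FPKM, H2BC4 from 1.56 ± 0.441 to 26.3 ± 2.13 FPKM and H1-2 from 10.5 ± 0.752 to 56.0 ± 6.37 FPKM, whereas H2BC12 fell from 29.7 ± 1.08 to 18.4 ± 1.80 FPKM. H2AC6 (chr6:26124145-26139116) and H2BC4 (chr6:26114873-26123926) span longer stretches than H1-2 (chr6:26055740-26056470) and H2BC12 (chr6:27146361-27146855). Whether the RNA counted for the listed genes lacked a tail was not tested, so their values do not measure RNA without a tail alone. The part of a shift in such RNA in the values of the mitochondrial rRNAs, tRNAs and mRNAs, MT-ND6 among them, was not tested either.

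The tRNA genes of the light-strand transcript rose, with 1 exception. MT-TY, MT-TN, MT-TC, MT-TA and MT-TS1 had the highest mean FPKM of all mitochondrial tRNA genes. MT-TY was at 1711, 1665 and 1706 FPKM in NC and at 2960, 2930 and 2857 FPKM in siGDF15, a log2 fold change of 0.89 (SE 0.0426, adjusted p = 1.2e-06). MT-TN, MT-TC and MT-TA, its neighbours in the cluster shown above, went from 1509 ± 18.7, 1404 ± 36.9 and 949 ± 14.1 FPKM to 2648 ± 31.5, 2469 ± 55.0 and 1654 ± 24.2 FPKM. Their log2 fold changes of 0.92, 0.92 and 0.91 were nearly equal to each other. MT-TS1, a serine tRNA gene between CO1 and CO2, rose by 0.66 (SE 0.0579, adjusted p = 2.6e-05) and MT-TE, the glutamate tRNA gene next to ND6, by 0.55 (SE 0.0789, adjusted p = 0.00042).

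MT-TP, the proline tRNA gene at the start of the light-strand transcript, had a log2 fold change as high as that of MT-RNR1, and which of them was higher changed with the library left out. It was at 123, 123 and 133 FPKM in NC and at 216, 243 and 227 FPKM in siGDF15, a log2 fold change of 0.96 (SE 0.089, adjusted p = 3.5e-05). The exception was MT-TQ, the glutamine tRNA gene between ND1 and ND2, at 44.3, 41.2 and 46.5 FPKM in NC and 30.3, 32.8 and 30.4 FPKM in siGDF15. Its groups were apart, with a log2 fold change of -0.39 (SE 0.148, adjusted p = 0.047). MT-TQ shares 3 bases with MT-TI on the other strand. The libraries were made with a kit that marks the strand, and whether the counting used the strand is not given in the sources used here, so reads of genes that lie opposite each other may not be told apart. Each light-strand tRNA gene, and MT-ND6 too, lies opposite the heavy-strand transcript.

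Among all tested genes 30.0% were higher and 31.4% lower. Over the 22 tRNA genes 10 were higher, 7 lower and 5 not called, so the share that fell was near that over all tested genes. Of the 14 tRNA genes of the heavy-strand transcript 3 rose, 6 fell and 5 were not called. Those that rose lie before ND1 or after CYB, near the ends of the transcript. MT-TF, the phenylalanine tRNA gene before the 12S rRNA, was at 63.7, 59.6 and 53.4 FPKM in NC and at 95.4, 110.0 and 105.8 FPKM in siGDF15, a log2 fold change of 0.92 (SE 0.133, adjusted p = 0.00044). MT-TT, the threonine tRNA gene after CYB, went from 103 ± 9.15 to 168 ± 7.03 FPKM (log2 fold change 0.81, SE 0.106, adjusted p = 0.00025). MT-TL1, a leucine tRNA gene between the 16S rRNA and ND1, went from 822 ± 77.8 to 1071 ± 22.6 FPKM (0.49, SE 0.0738, adjusted p = 0.00058).

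The heavy-strand tRNA genes that fell lie within the stretch from ND1 to ND5. MT-TM, the methionine tRNA gene before ND2, was at 51.0, 49.2 and 48.7 FPKM in NC and at 28.1, 35.8 and 35.2 FPKM in siGDF15, a log2 fold change of -0.48 (SE 0.16, adjusted p = 0.03). MT-TL2 was at 141, 129 and 137 FPKM in NC and at 93.6, 93.1 and 88.4 FPKM in siGDF15, a log2 fold change of -0.46 (SE 0.0999, adjusted p = 0.0042). MT-TS2 was at 206, 193 and 205 FPKM in NC and at 146, 138 and 127 FPKM in siGDF15, a log2 fold change of -0.45 (SE 0.0948, adjusted p = 0.0034). In these genes no siGDF15 library reached an NC library. MT-TH, the third gene of the cluster between ND4 and ND5, went from 236 ± 7.86 to 165 ± 18.3 FPKM (-0.41, SE 0.0978, adjusted p = 0.0064). MT-TR, the arginine tRNA gene between ND3 and ND4L, and MT-TG, the glycine tRNA gene between CO3 and ND3, had log2 fold changes of -0.42 and -0.41 (adjusted p = 0.0056 and 0.032). The calls of MT-TM, MT-TG and MT-TQ were lost when certain single libraries were left out. Without NC replicate 1, siGDF15 replicate 1 or siGDF15 replicate 3 all of them were lost, and 4 of the 37 genes were lower. MT-TG was also lost without NC replicate 3, and MT-TQ without NC replicate 3 or siGDF15 replicate 2. Their adjusted p then reached 0.098, 0.11 and 0.12.

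The 5 tRNA genes not called were MT-TV, MT-TW, MT-TD, MT-TI and MT-TK. MT-TV, MT-TW and MT-TD had overlapping groups and log2 fold changes of 0.25, 0.24 and 0.28. MT-TI and MT-TK were apart and lower in FPKM, with log2 fold changes of -0.30 (adjusted p = 0.11) and -0.19 (adjusted p = 0.32). MT-TW, the tryptophan tRNA gene, had the lowest level of all 37 genes, 10.9 ± 0.50 FPKM in NC and 11.9 ± 1.06 FPKM in siGDF15. It had as few as 43 counts in a library and an SE of 0.177. A change as small as its log2 fold change of 0.24 was therefore less detectable there.

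Set against the nearest rRNA or mRNA on either side, the tRNA genes that fell had wider differences than their own fold changes, since the flanking mRNAs rose. The FPKM of MT-TH was 6.63, 6.04 and 6.35% of the mean FPKM of ND4 and ND5 in NC and 3.63, 3.16 and 3.01% in siGDF15. MT-TS2 went from 5.41 ± 0.33 to 2.71 ± 0.179% and MT-TL2 from 3.64 ± 0.266 to 1.82 ± 0.0675% of the same mRNAs. MT-TR went from 6.25 ± 0.711 to 3.34 ± 0.135% of ND3 and ND4L, and MT-TG from 1.94 ± 0.257 to 1.10 ± 0.0664% of CO3 and ND3. MT-TI, MT-TQ and MT-TM, between ND1 and ND2, went from 1.67, 1.48 and 1.67% to 0.946, 0.785 and 0.832%. On the light-strand transcript MT-TA, MT-TN, MT-TC and MT-TY went the other way, from 17.2, 27.4, 25.5 and 30.7% to 22.6, 36.2, 33.7 and 39.8% of ND2 and CO1, which lie on the other strand. Of the 19 tRNA genes with an rRNA or mRNA on either side, 12 had a lower percentage in every siGDF15 library than in any NC library, 5 had a higher one and 2, MT-TL1 and MT-TD, overlapped. By strand, 10 of 12 heavy-strand genes were lower and none higher, and 2 of 7 light-strand genes were lower (MT-TQ and MT-TE) and 5 higher. A lower percentage need not mean a fall of the tRNA gene, since all flanking genes rose. Among the genes with a lower percentage, MT-TE rose in its own level, and MT-TV, MT-TW, MT-TI and MT-TK were not called.

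**Figure D3:**
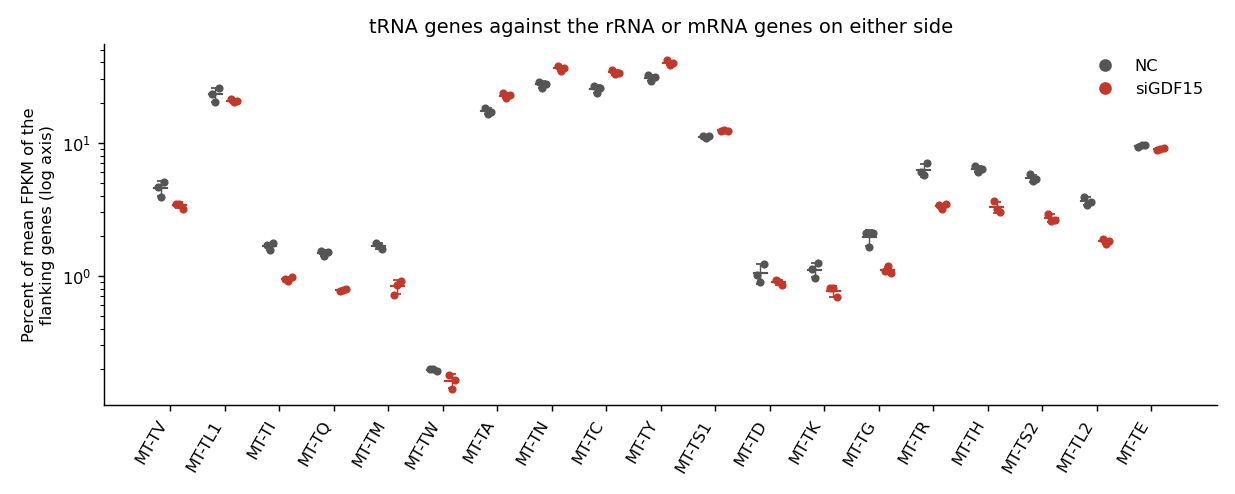
FPKM of 19 tRNA genes as a percentage of the mean FPKM of the nearest rRNA or mRNA genes on either side, on a log axis, in genome order. Each point is 1 library (grey, NC; red, siGDF15), with lines for the mean and SD of 3 libraries. The red points lie below the grey points for 12 genes and above them for MT-TA, MT-TN, MT-TC, MT-TY and MT-TS1, and the groups overlap for MT-TL1 (23.0 and 20.6% on average) and MT-TD (1.05 and 0.892%).

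The summed share of all counts rose in each class, and by more in the rarer classes, though not every tRNA gene rose. The mRNAs held 5.57, 5.91 and 5.71% of the counts of the NC libraries and 7.35, 7.93 and 7.34% of those of the siGDF15 libraries, a 1.32-fold difference. The rRNAs went from 0.760 ± 0.0418 to 1.10 ± 0.0319% (1.45-fold) and the tRNAs from 0.0680 ± 0.00167 to 0.104 ± 0.00207% (1.54-fold). No class had overlapping groups (exact permutation test, p = 0.1 for each, the smallest possible). In bulk RNA a higher share of mitochondrial transcripts per cell and a lower content of other RNA cannot be told apart.

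**Figure D4:**
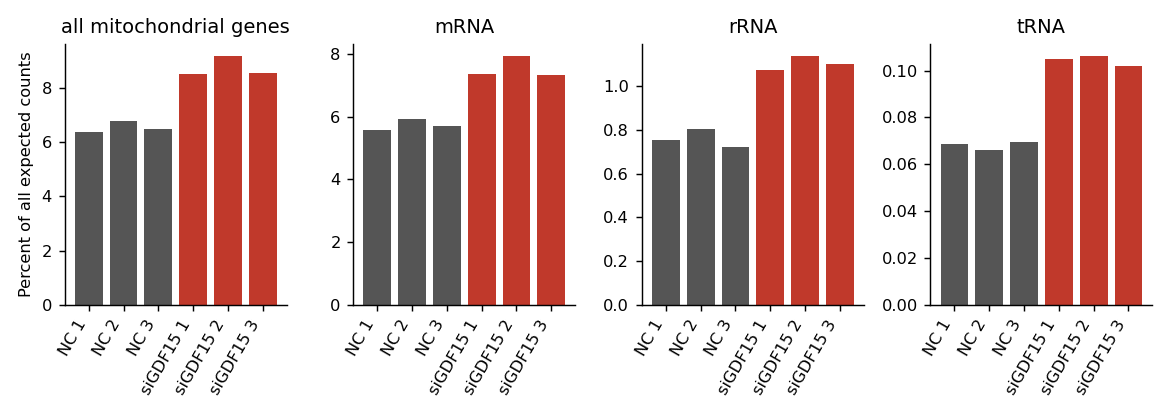
Percentage of all expected counts of a library that fell on all mitochondrial genes, mRNAs, rRNAs and tRNAs, each panel with its own axis starting at 0. Each bar is 1 library (grey, NC; red, siGDF15). In each panel the 3 red bars stand above the 3 grey bars.

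Within the mitochondrial counts, 12 ratios were compared, which do not depend on how the libraries are scaled to each other. With 3 libraries per group no ratio could have a two-sided exact p under 0.1, and each ratio with p = 0.1 had an adjusted p of 0.133 (Benjamini-Hochberg over the 12). Light-strand genes held 2.02, 2.02 and 1.99% of the count of heavy-strand genes in NC and 2.45, 2.46 and 2.39% in siGDF15 (p = 0.1, exact permutation test). ND6 held 1.38 ± 0.049% of the count of the other mRNAs in NC and 1.63 ± 0.0561% in siGDF15 (n = 3 each, exact p = 0.1). Both strand ratios were higher in each siGDF15 library than in any NC library. MT-ND6 and the light-strand tRNA genes lie opposite the heavy-strand transcript, and whether the counting used the strand is not given. The ratio of rRNA to mRNA went from 13.3 ± 0.531 to 14.7 ± 0.345% and that of tRNA to mRNA from 1.19 ± 0.0608 to 1.39 ± 0.0455%, both without overlap.

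Among the complexes, complex V lost part of its share of the mRNA counts and complex III gained. The ATP synthase mRNAs held 9.87, 9.69 and 9.82% of the mRNA counts in NC and 8.52, 8.36 and 8.21% in siGDF15 (exact p = 0.1). MT-CYB of complex III held 6.81 ± 0.083% in NC and 7.29 ± 0.0905% in siGDF15 (n = 3 each, exact p = 0.1). In the edgeR fit with the summed mitochondrial mRNA count as library size, MT-CYB was not called (log2 difference 0.098, SE 0.0491, adjusted p = 0.086). The shares of complex I (37.6 ± 0.985 and 38.6 ± 0.642%, n = 3 each, exact p = 0.2) and of complex IV (45.8 ± 0.971 and 45.7 ± 0.822%, n = 3 each, exact p = 0.9) overlapped.

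The last 3 of the 12 ratios were chosen after the values of the genes had been seen, and they describe the split of the tRNA genes. Light-strand tRNAs held 302, 323 and 283% of the count of heavy-strand tRNAs in NC and 483, 479 and 497% in siGDF15. The cluster of MT-TH, MT-TS2 and MT-TL2 held 0.343 ± 0.0198% of the count of ND4 and ND5 in NC and 0.174 ± 0.0121% in siGDF15. The cluster of MT-TA, MT-TN, MT-TC and MT-TY held 54.1 ± 4.22% of the count of ND6 in NC and 60.9 ± 4.31% in siGDF15, with overlapping groups (exact p = 0.2).

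To see which transcripts moved by more or less than the mitochondrial mRNAs as a whole, the fit was repeated with the summed mRNA count of a library as its size. On this scale 10 of the 37 genes were higher, 13 were lower and 14 were not called, where 5.96% of all tested genes were higher and 69.9% lower. Those higher were MT-RNR1 (log2 difference 0.46, SE 0.0717, adjusted p = 6.8e-05), MT-ND6 (0.24, SE 0.0647, adjusted p = 0.0045), MT-ND1 (0.19, SE 0.0525, adjusted p = 0.0046) and the tRNA genes MT-TP, MT-TC, MT-TN, MT-TA, MT-TY, MT-TF and MT-TT. Among the mRNAs MT-ATP6 (-0.23, SE 0.0496, adjusted p = 0.00094), MT-ATP8 (-0.22), MT-ND2 (-0.21) and MT-CO3 (-0.11) were lower. The tRNA genes MT-TM, MT-TL2, MT-TS2, MT-TG, MT-TR, MT-TH, MT-TQ, MT-TI and MT-TK were lower, from -0.98 for MT-TM to -0.69 for MT-TK. MT-TI and MT-TK, which were not called against the whole library, were thus called against the mitochondrial mRNAs (adjusted p = 0.001 and 0.0026). The calls of MT-CO3 and MT-TT were lost when any single library other than NC replicate 3 was left out (adjusted p up to 0.16 and 0.13), and that of MT-TF without NC replicate 3 or siGDF15 replicate 3 (up to 0.072).

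The base composition of the transcripts went with the strand. MT-ND6 held 35.6% G and 7.05% C, whereas the mRNAs of the heavy-strand transcript held 6.28 to 16.2% G and 29.5 to 36.0% C. The tRNA genes of the light-strand transcript held 23.5 to 36.1% G and those of the heavy-strand transcript 10.3 to 19.1% G. MT-TQ, the light-strand tRNA gene that fell, had the highest share of G of all 37 genes. The part that base composition has in the difference between strands was not tested. In 6 mRNAs (ND1, ND2, CO3, ND3, ND4 and CYB) the length was no multiple of 3, so the stop codon is completed only by the poly(A) tail. Both kinds were found among the mRNAs with large and with small changes.

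Nuclear copies of mitochondrial genes can share reads with them. The table held 63 such copies, of which 9 passed the filter and 5 of those (55.6%, against 30.0% of all tested genes) were higher, with none lower and a median log2 fold change of 0.35. A block of copies on chromosome 1 stood out by level. MTATP6P1 (positions 633696 to 634376) was 98.5% identical to MT-ATP6 and held 16.7% of its count in NC, and its log2 fold change of 0.25 (SE 0.0429) was close to that of MT-ATP6. MTND2P28 (629640 to 630683) was 98.4% identical to MT-ND2, held 12.7% of its count and changed by 0.22 (SE 0.0477). MTCO1P12 (631074 to 632616) was 98.7% identical to MT-CO1, held 1.72% of its count and changed by 0.57 (SE 0.0724). Reads of these pairs may not be told apart. With the counts of 8 copies added to their mitochondrial genes, MT-ATP6 and MT-ND2 had log2 fold changes of 0.27 and 0.29, and every mitochondrial gene kept its call.

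The nuclear genes for subunits of the same complexes also rose more often than they fell. Of 74 tested, 40 (54.1%) were higher and 6 (8.11%) lower, against 30.0 and 31.4% of all tested genes, with a median log2 fold change of 0.20, where the mitochondrial mRNAs had a median of 0.54. Without the TMM factors the counts were 29 higher and 13 lower (39.2 and 17.6%), against 22.8 and 39.5% of all tested genes. Complex V had 11 of 17 higher and none lower, among them ATP5F1A, the alpha subunit of the catalytic head, at 49.5 ± 0.295 FPKM in NC and 68.9 ± 2.22 FPKM in siGDF15. ATP5MG, ATP5MC2 and ATP5MK, small membrane-part subunits, had log2 fold changes of 0.70, 0.58 and 0.62. The median log2 fold change of complex V was 0.27 for its mitochondrial mRNAs and 0.30 for its nuclear subunits.

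Complex IV had 8 of 11 higher and 2 lower (median 0.26), with COX7C, NDUFA4, COX7B and COX6C higher by 0.54, 0.50, 0.49 and 0.28 and COX8A and COX7A2 lower (log2 fold changes of -0.50 and -0.18). Complex I had 17 of 37 higher and 3 lower (median 0.15). NDUFA13, NDUFA1 and NDUFB2 rose by 0.66, 0.60 and 0.42, and NDUFA5, NDUFA6 and NDUFA9 fell, with log2 fold changes of -0.58, -0.32 and -0.24. Complex III had 4 of 9 higher and 1 lower (median 0.12). Its UQCR11, UQCRB, UQCRC2 and UQCR10 rose by 0.58, 0.41, 0.35 and 0.21. Its cytochrome c1 gene CYC1 went from 123.3 ± 8.09 to 53.3 ± 0.345 FPKM, a log2 fold change of -1.11 (SE 0.0587, adjusted p = 2e-06), opposite to MT-CYB of the same complex.

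Of 17 genes that transcribe and replicate the mitochondrial genome, 2 (11.8%) were higher and 6 (35.3%) lower, against 30.0 and 31.4% of all tested genes, with a median log2 fold change of -0.14. The share that fell was near that over all genes. TFAM, which packages mitochondrial DNA and opens its promoters, was at 16.4 ± 0.887 FPKM in NC and 9.998 ± 0.167 FPKM in siGDF15 (-0.61, SE 0.056, adjusted p = 3.4e-05). PRIMPOL, a primase and polymerase, went from 7.23 ± 0.987 to 2.31 ± 0.107 FPKM (-1.53, SE 0.11, adjusted p = 8.9e-06). MTERF3, a factor that represses mitochondrial transcription, went from 23.0 ± 2.99 to 10.9 ± 0.555 FPKM (-0.97, SE 0.103, adjusted p = 7.8e-05), and MGME1, a nuclease of mitochondrial DNA replication, from 25.5 ± 1.27 to 13.1 ± 0.237 FPKM (-0.86). The topoisomerase gene TOP1MT (0.37, SE 0.0577) and the transcription factor gene TFB2M (0.26, SE 0.0897) were higher, TFB2M with overlapping groups in FPKM. POLRMT, the mitochondrial RNA polymerase, named here for its role, had a log2 fold change of -0.19 (SE 0.0783, adjusted p = 0.061).

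Of 27 genes for processing and decay of mitochondrial RNA, 2 (7.41%) were higher and 6 (22.2%) lower, both below the shares of 30.0 and 31.4% over all tested genes, with a median log2 fold change of -0.08. LRPPRC, which stabilises mitochondrial mRNAs, rose by 0.35 (SE 0.0719, adjusted p = 0.0032), and TRMT10C, a subunit of the enzyme that cuts the 5′ end of mitochondrial tRNAs, by 0.25 (SE 0.0664, adjusted p = 0.01). The lower genes included PDE12 (-0.60, SE 0.0772), which removes poly(A) from mitochondrial RNA, TRNT1 (-0.38, SE 0.0749), which adds CCA to tRNAs, FASTKD1 (-0.39, SE 0.0854), an RNA-binding protein, and MRM2 (-0.33, SE 0.0688), which methylates the 16S rRNA. SLIRP, the partner of LRPPRC, also named for its role, had a log2 fold change of 0.05 (SE 0.113, adjusted p = 0.73). Of 7 regulators of mitochondrial biogenesis, 5 passed the filter. PPRC1 was higher (0.30, SE 0.108, adjusted p = 0.04), with overlapping groups in FPKM. NRF1 (-0.50) and GABPB1 (-0.34) were lower and the other 2 were not called.

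Of 20 other nuclear-encoded mitochondrial proteins 5 (25.0%) were higher and 7 (35.0%) lower, near the shares over all tested genes. The adenine nucleotide carriers of the inner membrane went apart, SLC25A6 from 257 ± 7.52 to 424 ± 10.1 FPKM (0.83, SE 0.0462) and SLC25A5 from 195 ± 11.5 to 113 ± 1.77 FPKM (-0.67, SE 0.0562). The phosphate carrier SLC25A3 rose by 0.68, the import receptor TOMM20 by 0.52 and citrate synthase, CS, by 0.23. The chaperone HSPD1, the porin VDAC3 and the protease LONP1 were lower, with log2 fold changes of -0.65, -0.37 and -0.34. This list did not move one way.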

How the data were processed

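Poly(A) RNA of 3 NC and 3 siGDF15 samples was sequenced as read pairs of 150 bases with a kit that marks the strand. The submitters' processing notes name fastp, HISAT2, StringTie, edgeR and GRCh38. The authors deposited an FPKM value per gene and library, scaled by transcript length and mapped fragments. They also deposited expected counts, whole numbers worked out from coverage and not a tally of reads (the value 4 is the most frequent from 1 to 20). Tool versions, annotation release and strand setting of the counting are not given in the sources used here.

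Genes whose FPKM averaged 1 or more over the 6 libraries were tested on the expected counts with edgeR 4.0.16 in R 4.3.3, using TMM normalization, the two-sided quasi-likelihood test and Benjamini-Hochberg adjustment over all tested genes, checked on simulated data. Each standard error was taken from the F statistic of the fit. A second fit used the summed mitochondrial mRNA count as library size. Shares and ratios were compared with exact permutation tests in Python 3.11.15. Heavy and light strand, class and complex were assigned by gene. An anticodon was located by its letters in a loop of 7 bases closed by the best paired stem. Alternatives were DESeq2 1.42.0, limma 3.58.1 on log2(FPKM + 1) and log2(FPKM + 0.1), other scalings and filters, a replicate block, and each library left out in turn. Merging the nuclear copies was added after the values were seen.

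The members, gene lists and tests were chosen with earlier results of these data known. Named were all mitochondrial mRNAs and rRNAs, the 5 tRNA genes with the highest mean FPKM and the 3 with the largest change in each direction, and up to 4 genes of each list per direction by adjusted p. The other tRNA genes were named after their values were seen. FPKM of tRNA genes, which are shorter than a read, depends on how length is corrected. Counts limit precision for tRNA genes, with 43 to 14687 counts per library, more than for mRNAs, with 17132 to 1329125. Some genes that these rules would name are not reported here.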

Additional observations from a re-analysis of the deposited data

How the results depend on the processing

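The count of mitochondrial genes higher in siGDF15 was 25 or 26 in all 17 alternatives run, and 25 to 26 when single libraries were left out. The count of lower genes was 7, and went from 4 to 9. It was 4 with every library scaled to the same median, 4 with the replicate block, and 4 to 7 with each library left out in turn (4 without NC replicate 1, siGDF15 replicate 1 or siGDF15 replicate 3). All calls that were lost were those of MT-TQ, MT-TM and MT-TG, and the cause was not tested. Of 629 values of single genes under these alternatives, 599 kept their direction and side of the adjusted p threshold and 0 turned their direction. MT-RNR1 and MT-TP crossed an absolute log2 fold change of 1 in some of them. They were at 1.012 and 1.0121 with every library scaled to the same median, and at 1.0145 and 1.0043 without siGDF15 replicate 1. Samples with the same replicate number had correlations of deviations of 0.0275, -0.0756 and 0.0457. No shared deviation was seen and no pairing was assumed, though such values cannot settle whether the numbers mark pairs. The share of complex IV among the mRNAs, log2 difference -0.0036, took values from -0.0182 to 0.0123 when single libraries were left out, and its sign is not resolved. Relative to the mitochondrial mRNA total, 8 to 11 genes were higher and 12 to 13 lower with each library left out in turn. MT-TL1 (-0.101 to 0.0620) and MT-ND4L (-0.0502 to 0.0226) changed sign there, neither of them called. With scaling by the total count the median log2 fold change of all tested genes was -0.0992, against 0.0026 in the main fit. The medians of the nuclear lists moved with it. With 3 libraries per group no share or ratio could reach an exact p under 0.1.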
